A study of Mus musculus with 10 samples.

Results

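The MHC class II genes examined here were H2-Aa, H2-Ab1, H2-Eb1, Cd74, Ciita, H2-DMa, H2-DMb1 and H2-Oa, 8 of the 48516 genes in the deposited expression table. Members were taken by gene symbol, and each symbol occurred in 1 row. The members were chosen by their FPKM levels in these same libraries, as known from earlier results, so the pattern of levels across libraries is a description and is not tested. Polyadenylated RNA was sequenced from 10 cultures of a pancreatic cancer model in FVB mice, grown without treatment to 90% confluence. Ink4a.1, a mouse pancreatic cancer cell line, had been injected into the pancreas, and lines were later grown from liver metastases. The groups were 5 liver metastasis lines (Met25, Met35, Met36, Met38 and Met72) and 5 libraries of the Ink4a line labelled primary tumour, with the same numbers 25, 35, 36, 38 and 72. The labels name no Cre, transgene or other agent by library, and no age. The design text speaks of metastases from 4 mice and the labels give 5 numbers. Whether the primary libraries stem from different mice or cultures is not stated in the labels, and the spread behind each p-value may thus be partly technical.

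MHC class II molecules are pairs of an alpha and a beta chain that carry peptides from endocytosed proteins to the cell surface, where CD4+ T cells read them. Dendritic cells, B cells and activated macrophages make them constantly or on demand, and many other cells do so only after exposure to interferon gamma. The coactivator CIITA switches on the whole set by docking on the factors RFX, CREB and NF-Y, which sit on the X and Y boxes of class II promoters. In the endosome the invariant chain CD74 first blocks the groove, H2-DM then exchanges its remnant for peptide, and H2-O restrains H2-DM.

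RefSeq promoter windows on GRCm38.p6, of 250 bases before to 50 after the gene start, were at hand for 5 of the 8 members. Those of 4 are printed because they hold the letters TGATTGG, the Y box bound by NF-Y, on the strand of the gene. Capitals mark TGATTGG and the X box core (G, any 2 bases, AC, any 3 bases, TG) where a Y core follows it after 15 to 40 bases. Matches to the X core outside that spacing, as in H2-Oa, are left in lower case. They cover chr17:34287774-34288073 for H2-Aa (minus strand), chr17:34305617-34305916 for H2-Eb1, chr17:34152941-34153240 for H2-DMb1 and chr17:34092129-34092428 for H2-Oa.
H2-Aa: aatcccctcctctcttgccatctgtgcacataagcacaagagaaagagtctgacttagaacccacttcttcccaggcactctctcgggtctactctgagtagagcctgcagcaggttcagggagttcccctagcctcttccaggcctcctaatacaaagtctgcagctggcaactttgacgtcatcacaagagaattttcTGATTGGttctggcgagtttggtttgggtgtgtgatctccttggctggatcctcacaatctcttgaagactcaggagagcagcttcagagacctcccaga
H2-Eb1: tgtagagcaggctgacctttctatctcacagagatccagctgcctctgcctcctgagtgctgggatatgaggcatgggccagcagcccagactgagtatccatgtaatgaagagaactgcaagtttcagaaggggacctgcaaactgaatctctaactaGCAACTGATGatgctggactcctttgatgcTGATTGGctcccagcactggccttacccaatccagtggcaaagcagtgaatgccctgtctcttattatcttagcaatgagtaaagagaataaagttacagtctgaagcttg
H2-DMb1: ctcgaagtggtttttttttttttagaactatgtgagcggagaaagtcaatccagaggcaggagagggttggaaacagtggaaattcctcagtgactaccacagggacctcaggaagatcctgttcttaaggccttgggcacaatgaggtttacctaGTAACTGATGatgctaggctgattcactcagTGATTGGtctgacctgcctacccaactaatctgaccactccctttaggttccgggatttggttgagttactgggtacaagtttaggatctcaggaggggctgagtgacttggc
H2-Oa: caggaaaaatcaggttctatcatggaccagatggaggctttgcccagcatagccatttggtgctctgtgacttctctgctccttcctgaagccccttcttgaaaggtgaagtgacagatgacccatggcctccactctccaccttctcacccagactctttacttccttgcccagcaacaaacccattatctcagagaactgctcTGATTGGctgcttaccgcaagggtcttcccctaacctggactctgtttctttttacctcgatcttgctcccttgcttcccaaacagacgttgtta

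The Y box began 50 bases before the gene start in H2-Aa, 61 in H2-Eb1, 63 in H2-DMb1 and 45 in H2-Oa. On either strand TGATTGG was present in 4 of the 5 members with a window, in 3 of 3 other class II genes with one (H2-DMb2, H2-Eb2 and H2-Ob), and in 7.82% of the 32851 promoter windows of the table. These letters were chosen after the sequences had been read. The X core followed after 15 to 40 bases by ATTGG, the shorter Y core contained in TGATTGG, was searched on both strands. It was found in 2 of the 5 members, as GCAACTGATG in H2-Eb1 and GTAACTGATG in H2-DMb1, with 22 and 23 bases between the cores. It was also found in H2-Eb2 and H2-Ob, and in 1.07% of all windows. Alone, the X core occurred in 38.7% and ATTGG in 37.4% of all windows, and in 4 and 5 of the 5 members. The windows of H2-DMa, at chr17:34122582-34122881 and chr17:34125268-34125567, lie wholly upstream of the locus given for it in the table and held no TGATTGG. H2-DMa is counted among the 5 members by these windows, and the start of its locus in the table was not searched. The window of H2-Oa lies inside its locus.

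The members lie on chromosome 17 except for Cd74 on chromosome 18 and Ciita on chromosome 16. On GRCm38 the table placed H2-Oa (ENSMUSG00000024334.8) at chr17:34083843-34095309, H2-DMa (ENSMUSG00000037649.9) at chr17:34135182-34139101 and H2-DMb1 (ENSMUSG00000079547.3) at chr17:34153072-34160230. It placed H2-Ab1 (ENSMUSG00000073421.5) at chr17:34263209-34269418, H2-Aa (ENSMUSG00000036594.14, minus strand) at chr17:34282744-34287827 and H2-Eb1 (ENSMUSG00000060586.10) at chr17:34305877-34316199. Ciita (ENSMUSG00000022504.9) was at chr16:10488178-10543054 and Cd74 (ENSMUSG00000024610.14) at chr18:60803848-60812646.

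The libraries are labelled as cell lines, yet those of numbers 25, 38 and 72 held leukocyte transcripts. Of the epithelial markers, Krt8 and Krt18 were at least 16.3 and 61.4 FPKM in each library, while Epcam was 0.857 to 15.2 FPKM in numbers 25, 38 and 72 and at most 0.061 FPKM in numbers 35 and 36. Cdh1, the gene of E-cadherin, was 1.90 to 8.71 FPKM in numbers 25, 38 and 72 and at most 0.291 FPKM in the others. Class II transcripts were divided by tumour number and not by group. The summed level of the 8 genes, in FPKM (fragments per kilobase of transcript, scaled to library depth), was 65.5 in metastasis 25, 4903 in metastasis 38 and 1838 in metastasis 72. It was 2523 in primary 25, 1804 in primary 38 and 468 in primary 72. In the libraries of numbers 35 and 36 it was 1.28 and 1.67 in metastasis and 1.44 and 1.01 in primary. The same division is seen in leukocyte transcripts. Summed over 8 leukocyte markers, the 6 libraries numbered 25, 38 or 72 held 303.6 to 1138 FPKM. The 4 numbered 35 or 36 held 2.09 to 4.37 FPKM, and there all 8 members were under 1 FPKM. The part of leukocyte content in the class II levels was not tested, and in bulk RNA more cells of a type and more RNA per cell cannot be told apart. Comparing these 6 libraries with the 4, 6 of the 8 members did not overlap and were higher in the 6, as were 15.2% of the 27639 genes detected in any library. The exceptions were Ciita and H2-Oa, whose value in metastasis 25 fell among or at those of the 4.

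**Figure D1:**
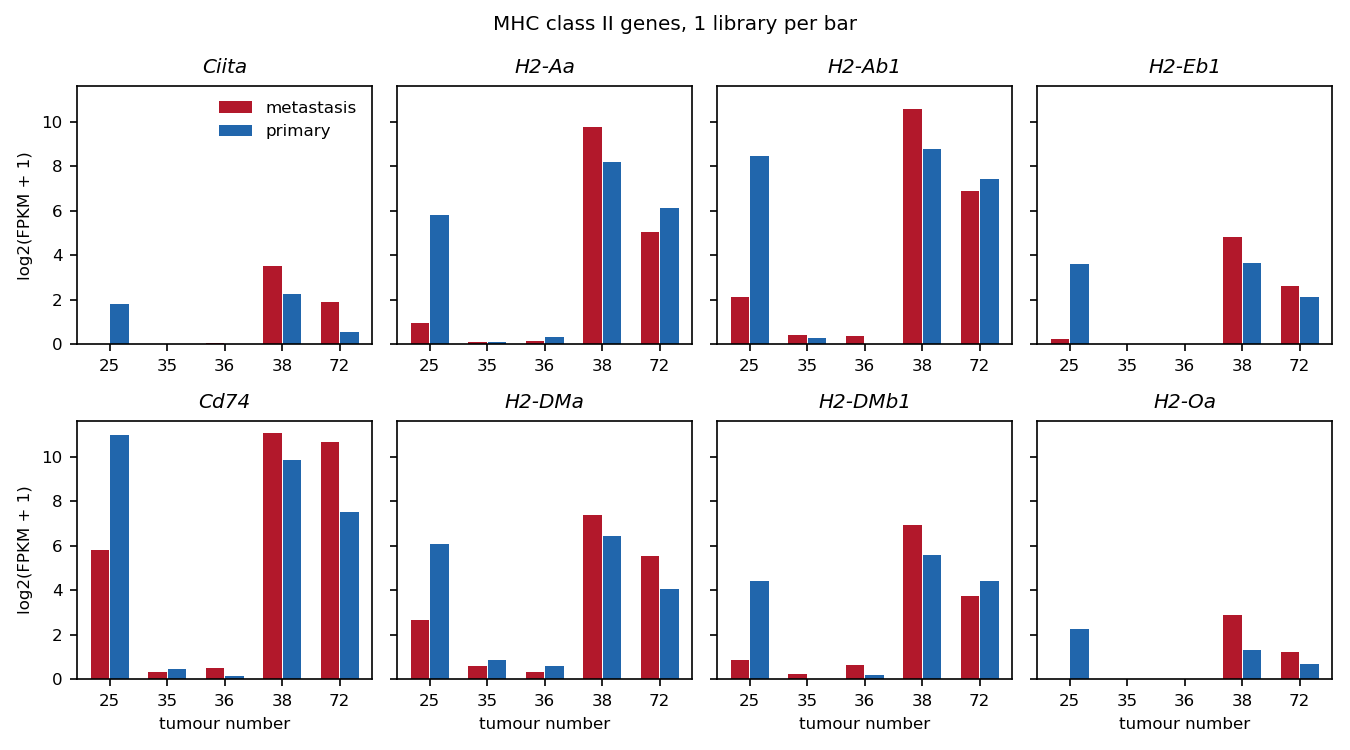
Level of each class II gene, as log2(FPKM + 1), in 5 metastasis (red) and 5 primary (blue) libraries by tumour number, 1 library per bar, with no error since each bar is 1 library. Numbers 35 and 36 are at or near 0 for every gene, and metastasis 25 is below the other 5 libraries of numbers 25, 38 and 72 for every gene.

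The classical chains carry the peptide. H2-Aa, the alpha chain of the A molecule, had 0.921, 0.0613, 0.111, 874 and 32.3 FPKM in metastasis 25, 35, 36, 38 and 72. In primary 25, 35, 36, 38 and 72 it had 54.9, 0.0602, 0.255, 291 and 69.2 FPKM. It was thus high in number 38 of either group and lower in the metastasis than in the primary library of numbers 25 and 72. H2-Ab1, its beta chain partner, had 3.36, 0.325, 0.311, 1552 and 119 FPKM in the metastasis libraries in the same order. In the primary libraries it had 357, 0.203, 0, 438 and 174 FPKM. Metastasis 38 was highest and the values of the 2 groups overlapped. H2-Eb1, the beta chain of the E molecule, was far lower per length, at 0.180, 0, 0, 27.1 and 5.25 FPKM in the metastasis libraries, and in the primary libraries it had 11.1, 0, 0, 11.6 and 3.33 FPKM. Its pair partner is listed as H2-Ea-ps, a pseudogene in the reference strain, which had 0, 0, 0, 49.2 and 5.68 FPKM in the metastasis libraries, and in the primary libraries it had 10.3, 0, 0, 17.0 and 3.11 FPKM. H2-Eb1 and H2-Ea-ps were thus listed at 0 in the 4 libraries of numbers 35 and 36.

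Cd74, the invariant chain, was the most abundant member in the 6 libraries of numbers 25, 38 and 72. It had 54.8, 0.229, 0.412, 2146 and 1619.9 FPKM in metastasis 25, 35, 36, 38 and 72, and 2007, 0.374, 0.109, 926 and 185 FPKM in the primary libraries in that order. Metastasis 72 and primary 25 were near metastasis 38 for this gene, although they were far below it for H2-Aa. Cd74 made up 83.7% of the summed class II FPKM in metastasis 25, 43.8% in metastasis 38 and 88.2% in metastasis 72. In primary 25, 38 and 72 it made up 79.5%, 51.3% and 39.4%.

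Among the peptide exchange genes, H2-DMa, the alpha chain of H2-DM, had 5.34, 0.489, 0.259, 166 and 45.0 FPKM in metastasis libraries. It had 66.7, 0.800, 0.495, 85.8 and 15.5 FPKM in primary libraries. H2-DMb1, a beta chain of H2-DM, had 0.837, 0.162, 0.554, 121 and 12.3 FPKM in the metastasis libraries, and in the primary libraries it had 20.4, 0, 0.139, 46.6 and 20.2 FPKM. Both were highest in metastasis 38, and in number 72 H2-DMa was higher and H2-DMb1 lower in the metastasis library. H2-DMb2, a second beta chain gene, had 0.723, 0, 0.153, 20.2 and 3.94 FPKM in the metastasis libraries, and in the primary libraries it had 6.86, 0, 0.0973, 12.9 and 2.96 FPKM. Of the 50-base stretches in H2-DMb1 transcripts of GENCODE M21, 22.7% also occur in H2-DMb2, so the split of reads between the 2 genes is uncertain. H2-Oa, the alpha chain of the inhibitor H2-O, was listed at 0 in metastasis 25, 35 and 36 and had 6.48 and 1.33 FPKM in metastasis 38 and 72. In primary libraries it had 3.79, 0, 0, 1.49 and 0.624 FPKM. Its beta chain partner H2-Ob had 0, 0, 0, 8.37 and 0.811 FPKM in the metastasis libraries, and in the primary libraries it had 2.22, 0.0341, 0, 1.48 and 0.584 FPKM. In M21, H2-Oa transcripts share 15.5% of their 50-base stretches with BC051537, whose exons overlap theirs, so some H2-Oa reads may be of that gene. H2-DMa transcripts share 8.43% with Brd2, whose exons overlap those of the M21 gene. The M21 gene starts at chr17:34119541, upstream of the locus given for H2-DMa in the table, which starts at chr17:34135182. Whether any H2-DMa reads were of Brd2 was not tested.

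Ciita, the coactivator, was present in low amounts. It had 0.0120, 0.0156, 0.0280, 10.6 and 2.79 FPKM in metastasis 25, 35, 36, 38 and 72, and 2.49, 0, 0.00745, 3.85 and 0.472 FPKM in the primary libraries in that order. Allowing for depth, the values of metastasis 25, 35 and 36 were 1.01, 2.02 and 4.05 times that of primary 36, the smallest step seen for this gene, so they rest on very few fragments. In Ciita metastasis 25 fell among the libraries of numbers 35 and 36, although it held leukocyte transcripts.

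The genes of the factors that CIITA docks on were detected in all 10 libraries. Rfxap, a subunit of RFX, was between 23.3 and 42.2 FPKM over all 10 libraries. Rfxank, another subunit, ranged over 2.22 to 2.75 FPKM in numbers 35 and 36, and over 2.76 to 4.04 FPKM elsewhere. Rfx5, the subunit that binds the X box, ranged over 2.28 to 2.77 FPKM in numbers 35 and 36, and over 3.30 to 10.5 FPKM elsewhere. Nfya, a subunit of NF-Y, was between 20.1 and 25.3 FPKM in numbers 35 and 36 and was lowest in metastasis 25, with 3.94 FPKM. Of the 10 transcription factor genes, 4 were higher and 6 lower in metastasis, and 0 passed the threshold. Creb1, a gene of CREB, ran the other way, with 13.5 to 15.3 FPKM in numbers 35 and 36 and 4.04 to 10.1 FPKM elsewhere. The leukocyte factors Irf8 and Spi1 were at most 0.441 and 0.313 FPKM in numbers 35 and 36. In the other 6 libraries Irf8 was between 5.81 and 45.4 FPKM and Spi1 between 5.16 and 37.9 FPKM.

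The comparison of groups asked whether class II expression differs in metastasis lines from that in primary libraries. H2-Aa averaged 181 ± 387 FPKM over the metastasis and 83.0 ± 120 FPKM over the primary libraries (SD, n = 5 each). Cd74 averaged 764 ± 1038 FPKM over the metastasis and 623 ± 862 FPKM over the primary libraries (SD, n = 5 each). On the log2(FPKM + 1) scale the metastasis minus primary difference was -0.91 (SE 2.18) for H2-Aa, -0.91 (SE 2.47) for H2-Ab1 and -0.33 (SE 1.11) for H2-Eb1. It was -0.13 (SE 2.86) for Cd74, -0.30 (SE 1.63) for H2-DMa and -0.44 (SE 1.52) for H2-DMb1. The FPKM means of H2-Aa and Cd74 thus had the opposite order to the log2 values. Ciita and H2-Oa were under the expression minimum of 1 FPKM in at least 5 libraries. In a fit without that minimum they differed by 0.18 (SE 0.79) and -0.03 (SE 0.66).

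None of the 6 members above the minimum passed the threshold (limma with Benjamini-Hochberg adjustment over 13152 genes, adjusted p = 0.99985 for each), and 0% of all genes tested did. At an unadjusted p under 0.05 there were 0 members, against 31 genes or 0.236% of those tested. The median difference of the 6 members was -0.39, and that of all genes tested 0.01. No member had its 5 metastasis values all above or all below its 5 primary values, against 0.0684% and 0.0304% of genes. In this fit, which had no block on number, the SE of each member exceeded its difference. The spread between numbers was part of the error of this fit, so the lack of calls does not show that the groups were alike. With number as a block the SE of H2-Aa was 0.83, below the size of its difference of -0.91, and 0 genes passed. In that limma fit 208 genes had an unadjusted p under 0.05. Within numbers 25, 38 and 72 the difference was -1.45 (SE 1.97) for H2-Aa and -0.28 (SE 1.48) for Cd74, within numbers 35 and 36 it was -0.09 for H2-Aa and 0.09 for Cd74, and 0 genes passed in either.

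By number the members did not move alike. In number 38 all 8 were higher in the metastasis library, by between 1.93 times (H2-DMa) and 4.37 times (H2-Oa), with H2-Aa 3.01 times and Cd74 2.32 times. In number 25 all 8 were lower in the metastasis library. Cd74 was 36.6 times lower there, H2-Aa 59.6 times, H2-Ab1 106 times and H2-DMa 12.5 times. In number 72 they divided. Cd74 was 8.78 times, H2-DMa 2.91 times, H2-Oa 2.13 times and H2-Eb1 1.58 times as high in the metastasis as in the primary library, and Ciita had 2.79 against 0.472 FPKM. H2-Aa, H2-Ab1 and H2-DMb1 were lower there, at 0.467, 0.681 and 0.607 times the level of primary 72. Each of these is a ratio of 1 library to 1 library and has no replicate.

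**Figure D2:**
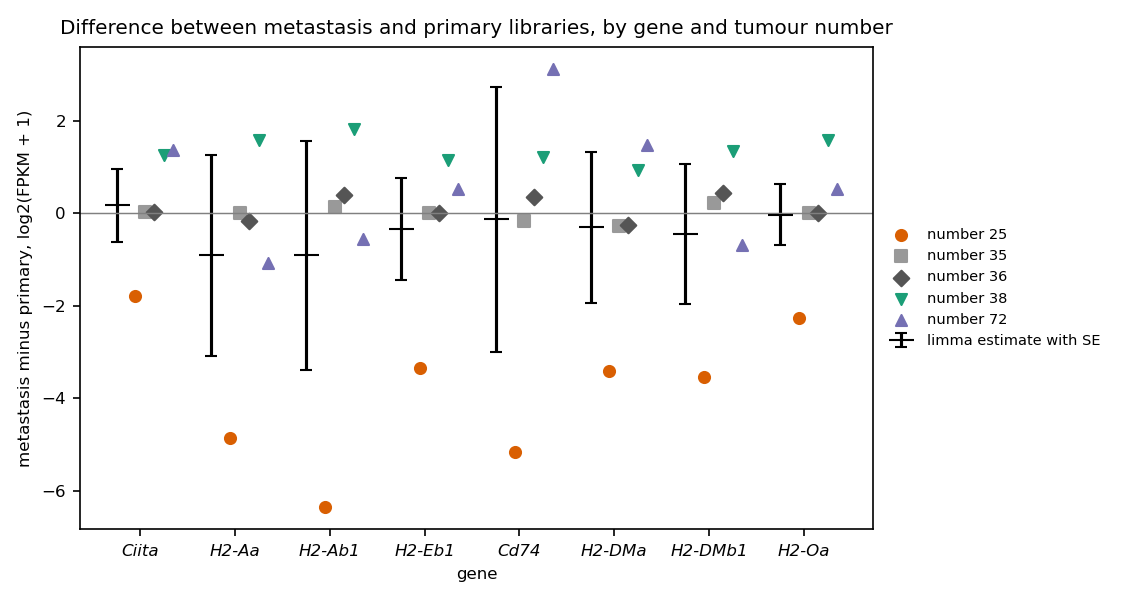
Metastasis minus primary difference on the log2(FPKM + 1) scale for each class II gene: coloured points are the 5 tumour numbers, and the black bar is the limma estimate with its SE over 5 metastasis and 5 primary libraries (without an expression minimum for Ciita and H2-Oa). Number 25 lies below 0 and number 38 above 0 for every gene, while number 72 lies on either side.

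Relative to Cd74 the members fell into unequal proportions, which do not depend on the scaling of a library. H2-Aa was 1.68%, 40.7% and 1.99% of the Cd74 FPKM in metastasis 25, 38 and 72, and 2.74%, 31.4% and 37.5% in primary 25, 38 and 72. H2-Ab1 was 6.14%, 72.3% and 7.33% in these metastasis libraries, and 17.8%, 47.3% and 94.5% in the primary ones. Metastasis 38, primary 38 and primary 72 were thus high for both chains, and metastasis 25, metastasis 72 and primary 25 were low. H2-Eb1 divided the libraries in the same way on a smaller range, from 0.324% in metastasis 72 to 1.80% in primary 72. H2-DMb1 lay between 0.757% in metastasis 72 and 10.9% in primary 72. H2-DMa varied least of these, from 2.78% in metastasis 72 to 9.75% in metastasis 25, and H2-Oa was between 0.0821% in metastasis 72 and 0.338% in primary 72, leaving out metastasis 25 at 0.

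**Figure D3:**
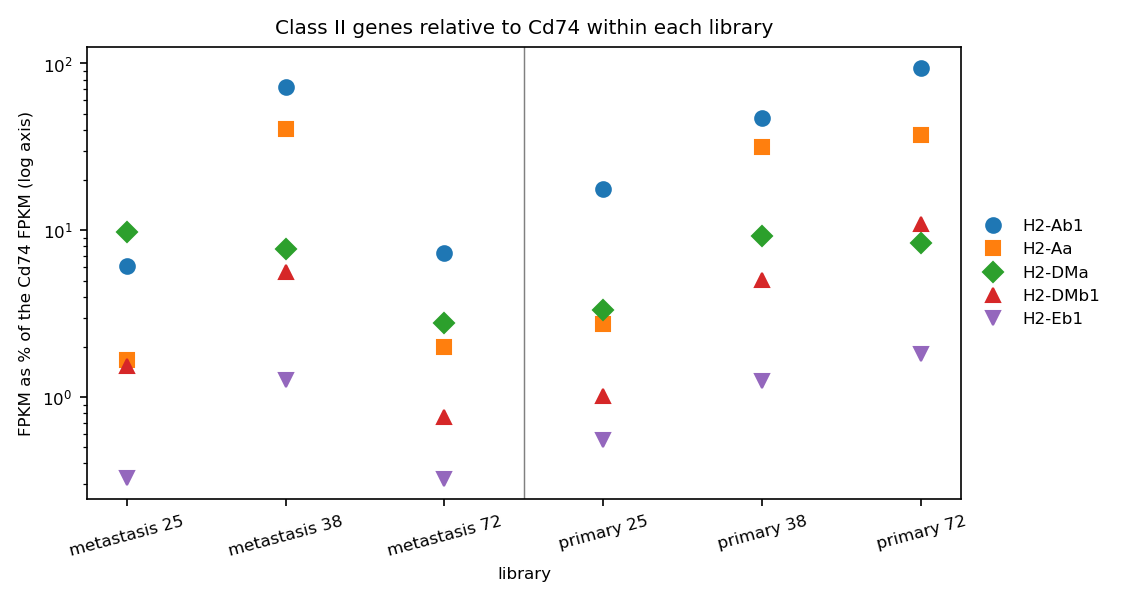
FPKM of 5 class II genes as a percentage of the Cd74 FPKM of the same library (log axis), for the 3 metastasis and 3 primary libraries of numbers 25, 38 and 72, with 1 point per library. H2-Aa is between 31.4% and 40.7% in metastasis 38, primary 38 and primary 72 and at most 2.74% in the other 3.

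The partner chains did not keep a fixed ratio either. H2-Aa was 27.4%, 56.3% and 27.2% of H2-Ab1 in metastasis 25, 38 and 72, and 15.4%, 66.3% and 39.6% in primary 25, 38 and 72. H2-DMb1 was 15.7%, 72.8% and 27.3% of H2-DMa in the metastasis libraries and 30.5%, 54.3% and 131% in the primary ones. The reference genome is that of C57BL/6J, and the class II chains are known to differ in sequence between mouse strains. How reads of the FVB alleles were assigned was not tested.

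Metastasis 25 stood apart from the other libraries with leukocyte transcripts. It was the lowest of the 6 libraries of numbers 25, 38 and 72 for all 8 members, as for 31.7% of the genes detected in the other 5. The median of the other 5 was 75.1 times its value for H2-Aa, 106 times for H2-Ab1, 29.5 times for Cd74 and 12.5 times for H2-DMa. Its macrophage markers were close to those of primary 72 for several genes. C1qa, a complement gene of macrophages, reached 202 FPKM in metastasis 25, against 167 FPKM in primary 72. Csf1r, the receptor for macrophage colony-stimulating factor, reached 16.1 FPKM in metastasis 25, against 13.6 FPKM in primary 72. C1qb, Adgre1 and Cd68 were also higher in metastasis 25, and C1qc, Lyz2, Mrc1, Fcgr1 and Mertk were lower. Fcgr1 had 1.61 FPKM in metastasis 25 against 3.23 FPKM in primary 72, and Mertk 5.81 against 15.9 FPKM. The pan-leukocyte gene Ptprc had 4.34 FPKM in metastasis 25, against 5.88 FPKM in primary 72. For the same libraries H2-Aa had 0.921 FPKM in metastasis 25, against 69.2 FPKM in primary 72, and Cd74 had 54.8 FPKM in metastasis 25, against 185 FPKM in primary 72.

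Relative to C1qa, Cd74 was 27.1% in metastasis 25 and between 110% and 341% in the other 5 libraries of numbers 25, 38 and 72. H2-Aa was 0.456% of C1qa in metastasis 25 and between 6.80% and 109% in the other 5, a range of 16.0 times against 3.09 times for Cd74. Relative to Ptprc, Cd74 was 1264% in metastasis 25 and between 3139% and 14883% in the other 5. H2-Aa was 21.2% of Ptprc in metastasis 25 and between 297% and 2350% in the other 5. Metastasis 25 also held 11288 FPKM of the 8 neutrophil markers, against at most 61.9 FPKM in each other library. Its 6 hepatocyte markers summed to 20217 FPKM, while no other library exceeded 1519 FPKM. Its depth was the lowest, and its FPKM sum was 939415 against at most 653161 in the other 9. The part of these differences in its class II level was not tested.

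Genes of interferon gamma signalling, the known inducer of Ciita, went with the class II genes in the order of several libraries. Ifng, the cytokine gene, was listed at 0 in metastasis 25, 35 and 36 and had 11.2 and 1.87 FPKM in metastasis 38 and 72. In primary libraries it had 2.73, 0, 0, 2.89 and 0.134 FPKM. Gbp2, a guanylate-binding protein gene induced by interferon, had 2.20, 0.135, 0.122, 347 and 123 FPKM in the metastasis libraries, and in the primary libraries it had 156, 0.233, 0.194, 158 and 16.2 FPKM. The receptor genes Ifngr1 and Ifngr2 were present in all 10 libraries, at between 16.9 and 76.9 FPKM and between 18.6 and 47.8 FPKM. Of the 9 genes of this list above the expression minimum, 3 were higher and 6 lower in metastasis, 0 passed the threshold, and the median difference was -0.13 on the log2 scale, against 0.01 for all genes tested.

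**Figure D4:**
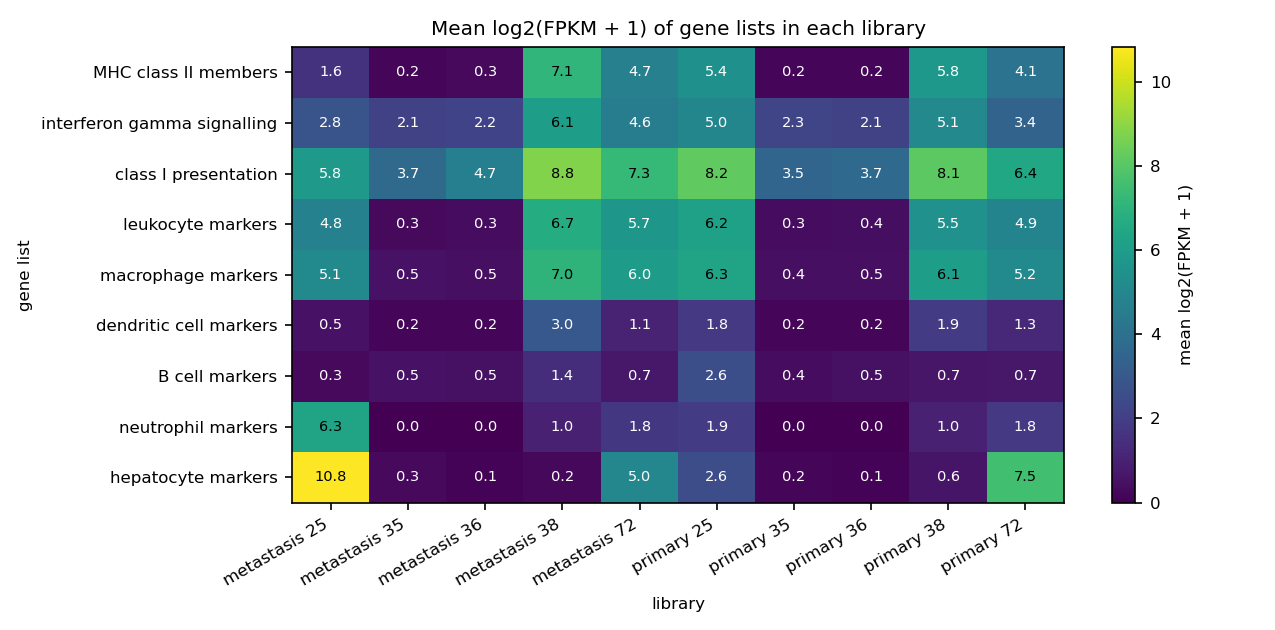
Mean log2(FPKM + 1) of 9 gene lists (rows) in 5 metastasis and 5 primary libraries (columns), with the value printed in each cell. The 8 class II genes averaged 1.58 in metastasis 25 against 4.12 in primary 72, while the macrophage lists of these 2 libraries averaged 5.13 and 5.17.

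The cells that usually present through class II were traced by their markers. Summed over 10 macrophage markers, the 6 libraries numbered 25, 38 or 72 held 861 to 4747 FPKM and the other 4 no more than 7.38 FPKM. The sum of 10 dendritic cell markers was 7.75, 202 and 15.9 FPKM in metastasis 25, 38 and 72 and 53.4, 56.4 and 32.9 FPKM in primary 25, 38 and 72. Clec10a, a lectin of dendritic cells and macrophages, made up 146 FPKM of this in metastasis 38. The defining dendritic genes stayed low, with Zbtb46 at most 4.54 FPKM and Flt3 at most 1.42 FPKM in each library. The sum of 10 B cell markers was highest in primary 25, with Ighm, the heavy chain gene of IgM, at 606 FPKM there. Above the expression minimum, 6 leukocyte markers were higher and 2 lower in metastasis, 7 macrophage markers were higher and 3 lower, 2 dendritic cell markers were higher and 3 lower, and 0 of these passed the threshold. The part of each cell type in the class II level was not tested.

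Markers of other tissues were traced in the same way. The 8 epithelial markers summed to between 87.4 FPKM in metastasis 38, the library richest in class II, and 757 FPKM in primary 25. The 8 fibroblast markers summed to between 546 and 2248 FPKM over all 10 libraries, with Pdgfra between 5.57 and 85.8 FPKM. Of these 8, 3 were higher in each library of numbers 25, 38 and 72 than in those of numbers 35 and 36. Dcn, 1 of the 3, was 31.4 to 403 FPKM in the former and at most 19.3 FPKM in the latter. Among all genes detected, 15.2% were higher in this way. The mesothelial gene Msln was 172 and 258 FPKM in metastasis 35 and 36 and 74.9 and 165 FPKM in primary 35 and 36. Its range in numbers 25, 38 and 72 was 32.0 to 95.3 FPKM and overlapped these values. Of the 6 mesothelial markers, 2 were higher in each library of numbers 25, 38 and 72 than in those of numbers 35 and 36. Wt1, 1 of the 2, was 0.346 to 13.8 FPKM in the former and at most 0.0161 FPKM in the latter. Of the 6 endothelial markers, 5 were higher in each library of numbers 25, 38 and 72 than in those of numbers 35 and 36, and the markers summed to between 12.9 and 65.1 FPKM in numbers 25, 38 and 72 and to at most 7.65 FPKM in numbers 35 and 36. Above the expression minimum, 2 epithelial genes were higher and 4 lower in metastasis, 2 fibroblast genes were higher and 6 lower, 1 mesothelial gene was higher and 3 lower, and 3 endothelial genes were higher and 1 lower. None of these passed the threshold.

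The enzymes that prepare class II peptides differed in how far they were divided by number. Ctss, cathepsin S, which trims the invariant chain, had 119, 0.0673, 0.152, 634 and 406 FPKM in the metastasis libraries, and in the primary libraries it had 466, 0.132, 0.193, 272 and 207 FPKM. Metastasis 25 was 3.41 times below the median of the other 5 for Ctss, against 29.5 times for Cd74. Ifi30, a thiol reductase of the lysosome, was 36.0 FPKM in metastasis 25, 37.8 to 43.8 FPKM in numbers 35 and 36, and 74.5 to 227 FPKM in the remaining 5. Ctsl and Lgmn, other lysosomal proteases, were at least 153 and 26.4 FPKM in every library. Ctsl was highest in metastasis 25, with 1766 FPKM, against at most 426 FPKM elsewhere. Lgmn was 26.4 to 30.8 FPKM in numbers 35 and 36 and 106 to 215 FPKM in numbers 25, 38 and 72. Of the 9 genes of this list, 6 were higher and 3 lower in metastasis, 0 passed the threshold, and the median difference was 0.09 on the log2 scale.

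Class I genes, which load peptides in nearly all nucleated cells, were detected in every library, down to 0.220 FPKM for Nlrc5 in primary 36. All 9 were higher in each library of numbers 25, 38 and 72 than in those of numbers 35 and 36. Among all genes detected, 15.2% were higher in this way. B2m was between 663 and 1020 FPKM in numbers 35 and 36 and between 1635 and 4104 FPKM in numbers 25, 38 and 72. Nlrc5, which acts for class I as CIITA does for class II, had 6.92, 0.574, 0.993, 108 and 24.3 FPKM in the metastasis libraries, and in the primary libraries it had 29.7, 0.360, 0.220, 59.3 and 15.6 FPKM. In metastasis 25 Nlrc5 was thus above its level in numbers 35 and 36, and Ciita was within its range there. Of the 9 class I genes, 7 were higher and 2 lower in metastasis, with 0 past the threshold and a median difference of 0.09.

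The genes most like the class II members over all 10 libraries were named by the root mean square distance between centred log2 profiles. The profile was the mean of the 6 members above the expression minimum. The nearest 8 were Aif1 (distance 0.41), Igtp (0.54), Gbp2 (0.60), AW112010 (0.61), Ccl5 (0.66), Psmb9 (0.67), Ccl7 (0.70) and Iigp1 (0.70). Aif1, a calcium-binding protein gene of macrophages, had 5.64, 0, 0.128, 232 and 37.8 FPKM in the metastasis libraries, and in the primary libraries it had 99.2, 0, 0, 66.5 and 26.3 FPKM. The members themselves lay at between 0.62 (H2-DMa) and 1.81 (Cd74). Within the 6 libraries of numbers 25, 38 and 72 the nearest 8 were Serpina3g (0.33), H2-Ea-ps (0.36), Gbp4 (0.37), Gbp8 (0.41), Gimap4 (0.41), Apol10b (0.42), Gm4841 (0.43) and Ly6a (0.46).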

How the data were processed

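Expression was deposited by the authors as FPKM, in a single table of 10 libraries and 48516 identified genes, from which 35 further lines without an identifier were omitted. Per the submitters' processing notes, Salmon, edgeR and mm8 were named, without role or version. Locus starts of the table, counted from 0, equal those of GENCODE M21 (GRCm38) after adding 1 for 67.8% of shared identifiers, so coordinates are given for GRCm38, counted from 1. Depth, read from the smallest steps of values in single-exon genes, was 15.7 M fragments in metastasis 25 and between 24.2 and 30.4 M in the other 9, assuming that FPKM used the total of each library. An exact 0 can be a failed estimate.

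Groups were compared on log2(FPKM + 1) for the 13152 genes that reached 1 FPKM in 5 or more of the 10 libraries, with limma 3.58.1 in R 4.3.3 (intensity trend, Benjamini-Hochberg adjustment at 0.05), since FPKM values are not counts. The script was tested on simulated data. The 18 gene lists, the 8 members among them, were chosen with earlier results of these data known. Genes are named as members, by place in a list, or by likeness, and the others after their values were seen. Deviations from the group means correlated between libraries of the same number at between 0.24 and 0.89, each above the minimum of 0.1 set for pairing. Metastasis 36 and 38 correlated best with the primary library of their own number, and metastasis 25, 35 and 72 with another (primary 72, 36 and 25, in that order). Blocking on number was tried as an alternative. Promoter sequences are from RefSeq (GRCm38.p6). Tables and figures were made in Python 3.11.15 with pandas 2.3.3 and matplotlib 3.10.9.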

Additional observations from a re-analysis of the deposited data

How the results depend on the processing

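No gene was called under any alternative run: a pseudocount of 0.1, no or a looser expression minimum, median ratio or quantile scaling, a block on number, no intensity trend, omission of each library, the numbers 25, 38 and 72 or 35 and 36 alone, and, added after the data were seen, scaling to equal FPKM sums, which moved the median difference of all genes to -0.12. At an unadjusted p under 0.05 there were between 11 and 800 genes. With the tumour number as a replicate block the estimates were the same, with SE 0.83 for H2-Aa and 1.06 for Cd74, and 0 genes passed.

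The direction of each of the 6 members above the expression minimum turned with single libraries, and Ciita and H2-Oa were not refitted. Leaving out 1 library at a time, the log2 difference ranged from -2.55 to 0.11 for H2-Aa, -2.54 to 0.034 for H2-Ab1, -1.15 to 0.11 for H2-Eb1, -1.54 to 1.21 for Cd74, -1.32 to 0.44 for H2-DMa and -1.55 to 0.22 for H2-DMb1. It was highest without primary 38 for H2-Aa, H2-Ab1, H2-Eb1 and H2-DMb1. Without metastasis 35 or 36 it turned positive in all but H2-Aa, and without primary 25 in H2-Eb1, Cd74 and H2-DMa. Without primary 38 it was positive in all 6, and Cd74 also turned without primary 72 (0.31). Within numbers 35 and 36 it was 0.27 for H2-Ab1, 0.093 for Cd74 and 0.33 for H2-DMb1, at levels near 0, and H2-Eb1 gave no value there. The cause was not tested. The signs held under the other alternatives. The summed levels were the same with all rows of a symbol.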

Other observations

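Genes that take part in presentation to helper T cells were divided by number in part. The costimulation list of 5 genes held Cd80, Cd86 and Cd40, and also Cd274 and Pdcd1lg2, which code for inhibitory ligands. Of these 5, Cd86, Cd40 and Cd274 were higher in each library of numbers 25, 38 and 72 than in those of 35 and 36. So were 4 of 8 T cell genes, and 15.2% of all genes detected. For Cd40 the margin was 0.17 FPKM in metastasis 25 against 0.169 FPKM in metastasis 35. Cd86, which gives T cells the second signal, had 3.61, 0.0168, 0, 21.7 and 6.91 FPKM in metastasis and 7.96, 0.106, 0, 10.7 and 3.76 FPKM in primary libraries. Cd40 had 0.17, 0.169, 0, 17.0 and 4.80 FPKM in metastasis and 7.54, 0, 0, 6.97 and 1.42 FPKM in primary libraries. Cd80, another costimulation gene, did not divide so, with 0.516 FPKM in metastasis 25 and 1.30 FPKM in primary 72, against 4.26 FPKM in primary 35. Cd86 and Cd40 were highest in metastasis 38, and Cd40 in metastasis 25 was as low as in metastasis 35. Of the 4 genes of the costimulation list above the expression minimum, 2 were higher and 2 lower in metastasis, and 0 passed the threshold.

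Cd4, the coreceptor that binds class II, was listed at 0 in the 4 libraries of numbers 35 and 36. It had 0.207, 9.56 and 1.48 FPKM in metastasis 25, 38 and 72 and 2.62, 2.60 and 0.866 FPKM in primary 25, 38 and 72. Lag3, another receptor for class II, was highest in metastasis 72, with 16.0 FPKM, against 9.32 FPKM in metastasis 38 and 8.25 FPKM in primary 25. Trbc2, a T cell receptor chain gene, was 14.6 to 19.0 FPKM in numbers 35 and 36 and 0.582 FPKM in metastasis 25. Of the 6 genes of the T cell list above the minimum, 2 were higher and 4 lower in metastasis, and 0 passed the threshold.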
